A study of Mus musculus with 39 samples.

Results

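Endothelial adhesion molecules were followed in 4 tissues of perforin-deficient mice. The set holds 8 genes, Icam1, Icam2, Vcam1, Sele, Selp, Pecam1, Cdh5 and Madcam1, which were taken by symbol from 24537 genes of the kidney, liver and lung table and from 52508 genes of the skin table. All 8 were listed in both tables. The filter on low counts left 5 of them in kidney (Icam1, Icam2, Vcam1, Pecam1, Cdh5), 2 in liver (Icam1, Pecam1), 6 in lung (the kidney set plus Selp) and 5 in skin (the kidney set). Members that did not pass are given by their counts and were not tested in that tissue.

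All mice were Prf1-/- on the C57BL/6 background. Prf1 encodes perforin, the pore-forming protein with which cytotoxic lymphocytes kill target cells, and no mouse with working perforin was among these libraries. Young mice were 3 months old and untreated. Old mice were 20 months old when the tissues were taken. They had received either ABT-737 at 25 mg/kg, an inhibitor of the BCL-2 family of anti-apoptotic proteins, or a DMSO-based vehicle, by intraperitoneal injection on consecutive days at the start of each month. The treatment labels of ABT-737 replicates 4 and 5 read ABT-738 and ABT-739, while their titles put them in the ABT-737 group. Age and vehicle injections cannot be told apart in the comparison of vehicle with young mice. Tissues were perfused before RNA was taken, and 3′ ends of transcripts were counted in bulk libraries made by a derivative of MARS-seq. Each group held 3 libraries, except that young kidney, liver and lung held 4, which gave 39 in all. The liver libraries were the shallowest, with a median total of 547867 counts (223957 to 891116). The median was 2485280 counts for skin (1493411 to 3842808), 2172924 for kidney (1431814 to 3513311) and 1928934 for lung (1046508 to 2600092). Levels are given as CPM, the count divided by the scaled library size in units of 1000000.

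Leukocytes leave the blood in steps, and these genes encode the endothelial side of them. The selectins Sele (E-selectin) and Selp (P-selectin) slow leukocytes by binding carbohydrate ligands, and Selp is also stored in platelets. Icam1, Icam2 and Vcam1 are immunoglobulin-family ligands that bind leukocyte integrins and hold the cell on the vessel wall. Madcam1 is the corresponding ligand for cells that home to gut tissue. Pecam1 and Cdh5 (VE-cadherin) sit at the junctions between endothelial cells, where leukocytes cross. Icam1, Vcam1 and Sele are known to be induced by inflammatory cytokines through NF-kappaB, while Icam2, Pecam1 and Cdh5 are known as constitutive endothelial genes. Icam1 is also made by epithelial cells and leukocytes, Vcam1 by some macrophages and Pecam1 by platelets and leukocytes. In bulk tissue, a change in the number of cells of a type and a change in RNA per cell cannot be told apart.

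The tissue labels were checked against marker genes. Slc34a1, a phosphate transporter of the proximal tubule, led the kidney markers with a mean of 5806 CPM in kidney, whereas it averaged 0.514 CPM in liver. Albumin (Alb) averaged 32210 CPM in liver and 28.6 CPM in skin. The club cell gene Scgb1a1 averaged 18220 CPM in lung, and the keratin gene Krt10 averaged 5019 CPM in skin. Each tissue therefore carried its own markers at high levels. Of 22 endothelial markers, lung had 21 that could be tested, kidney 20, skin 19 and liver 7. In liver the endothelial marker Aplnr had no count in any library.

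Promoter sequences of RefSeq (GRCm38.p6, 250 bases before to 50 after the annotated start) were matched for 4 of the 8 genes, Icam1, Sele, Selp and Madcam1. Entries for Icam2, Vcam1, Pecam1 and Cdh5 were not among them. The sequences of the first 3 are shown because they hold the NF-kappaB motif that cytokine induction of adhesion molecules is known for, in a gene that changed in several tissues and in both selectins. Capitals mark matches of the kappaB letters GGNNNTTCC on either strand. Positions below are counted from the annotated start. The Icam1 window lies on the plus strand at chr9:21015690-21015989, the Sele window at chr1:164047984-164048283 and the Selp window at chr1:164115014-164115313, both also on the plus strand.
Icam1: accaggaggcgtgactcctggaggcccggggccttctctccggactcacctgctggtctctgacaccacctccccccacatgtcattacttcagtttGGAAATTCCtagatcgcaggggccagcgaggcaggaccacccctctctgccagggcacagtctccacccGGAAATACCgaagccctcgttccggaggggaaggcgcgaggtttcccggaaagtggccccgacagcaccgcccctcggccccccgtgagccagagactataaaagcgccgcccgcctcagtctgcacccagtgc
Sele: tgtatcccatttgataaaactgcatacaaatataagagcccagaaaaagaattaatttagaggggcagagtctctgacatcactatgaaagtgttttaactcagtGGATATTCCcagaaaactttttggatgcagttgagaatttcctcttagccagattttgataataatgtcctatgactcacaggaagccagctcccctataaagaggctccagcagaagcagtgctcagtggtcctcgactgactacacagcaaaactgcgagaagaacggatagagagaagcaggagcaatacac
Selp: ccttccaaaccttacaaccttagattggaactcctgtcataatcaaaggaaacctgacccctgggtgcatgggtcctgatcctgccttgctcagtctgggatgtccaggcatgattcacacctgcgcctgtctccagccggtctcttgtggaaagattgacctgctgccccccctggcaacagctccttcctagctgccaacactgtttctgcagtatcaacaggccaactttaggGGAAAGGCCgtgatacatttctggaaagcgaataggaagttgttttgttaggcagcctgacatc
In Icam1 the letters matched at -153 to -145 on both strands and at -84 to -76 on the minus strand. In Sele they matched at -145 to -137 on the plus strand, and in Selp at -14 to -6 on the minus strand. The Madcam1 window (chr10:79664309-79664608, plus strand) held matches on the minus strand at -83 to -75 and at -70 to -62. Over all promoters of this length, 6070 of 32851 (18.5%) held at least 1 match. The GAS letters TTCNNNGAA were found in Icam1 at -42 to -34 and in Sele at -140 to -132, where they overlap the kappaB match, and in 8.30% of all promoters. The AP-1 letters TGANTCA were found in Sele at -73 to -67 and in Selp at -139 to -133, and in 7.81% of all promoters. The ETS letters CAGGAAG were found in Sele at -66 to -60, next to the AP-1 letters, and in 13.3% of all promoters. The TATA letters TATAAA were found in Sele at -49 to -44 and in Icam1 at 13 to 18, and in 13.6% of all promoters. All 5 motifs were searched on both strands, and a match of letters does not show that a factor binds there.

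The first question was how much of each adhesion molecule the tissues of young perforin-deficient mice carried. Kidney, liver and lung were scaled together for this, so the levels in this paragraph are on a common scale, and skin was left out because it is in another table. In young lung Icam1 (NM_010493, chr9:21015940-21028814) averaged 507.7 CPM ± 10.9 (SD, n = 4). It averaged 20.7 CPM ± 2.84 in young kidney and 18.1 CPM ± 12.7 in young liver (SD, n = 4 each). Lung was thus 24.5-fold above kidney (log2 4.61 ± 0.27 SE, adjusted p = 3.77e-16) and 26.9-fold above liver (log2 4.75 ± 0.32, adjusted p = 5.86e-15), while kidney and liver could not be separated (log2 0.14 ± 0.34, adjusted p = 0.780). Pecam1 (NM_001305157, chr11:106654213-106715281) averaged 515.3 CPM ± 54.4 in lung, 52.1 CPM ± 4.23 in kidney and 29.9 CPM ± 11.4 in liver (SD, n = 4 each). The junction cadherin Cdh5 (NM_009868, chr8:104101625-104144502) averaged 217.3 CPM ± 14.0 in lung against 12.5 CPM ± 0.748 in kidney and 14.4 CPM ± 7.33 in liver. Icam2 (NM_010494, chr11:106377656-106382781), the constitutive integrin ligand, averaged 199.5 CPM ± 9.47 in lung, 19.3 CPM ± 6.24 in kidney and 9.0 CPM ± 8.13 in liver. For these constitutive genes lung stood above kidney by 9.88-fold (Pecam1), 17.2-fold (Cdh5) and 10.4-fold (Icam2), and Pecam1 stood 17.3-fold above liver. Icam2 and Cdh5 did not pass the filter in liver, where young libraries held 8, 3, 3 and 1 counts of Icam2 and 2, 11, 8 and 5 of Cdh5, so their liver levels are given with no fold and no test.

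For Vcam1 and Selp fewer tissues could be compared. Vcam1 (NM_011693, chr3:116110020-116129688) averaged 16.0 CPM ± 4.29 in young lung, 8.06 CPM ± 4.22 in young liver and 3.12 CPM ± 0.583 in young kidney (SD, n = 4 each). Lung exceeded kidney (5.04-fold, log2 2.33 ± 0.42 SE, adjusted p = 1.26e-05). Young liver held 1, 4, 4 and 5 Vcam1 counts and did not pass the filter, so nothing is read from tests against it. Selp (NM_011347, chr1:164115264-164150026) averaged 3.85 CPM ± 2.72 in young lung and 1.83 CPM ± 1.24 in young liver. Young kidney held 0, 1, 0 and 0 Selp counts and young liver 1, 0, 1 and 1, so no fold is given against either and nothing is read from the tests. Between kidney and liver, Pecam1 was higher in kidney (log2 0.81 ± 0.32, adjusted p = 0.0383). The kidney–liver call for Pecam1 was lost without young kidney replicate 1, 2 or 3, without young liver replicate 1, 2 or 3, and without lung ABT-737 replicate 4 (adjusted p up to 0.120). It was also lost with DESeq2 (adjusted p = 0.0898), with DESeq2 size factors (0.0840) and without the filter (0.0843). The joint fit held 6 members, but Selp entered it through lung, and Icam2, Vcam1 and Cdh5 did not pass the filter in liver alone. Of the 5 members that passed in both lung and kidney, 5 were called higher in lung, where 64.3% of 13107 genes were called in either direction. Of the 2 that passed in liver, Icam1 and Pecam1, both were called higher in lung (62.2% of genes) and 1, Pecam1, differed from kidney (41.2% of genes). The median log2 difference of all genes was 0.45 between lung and liver and 0.39 between kidney and liver, so tissue differences near these values are no larger than the typical gene.

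**Figure D1:**
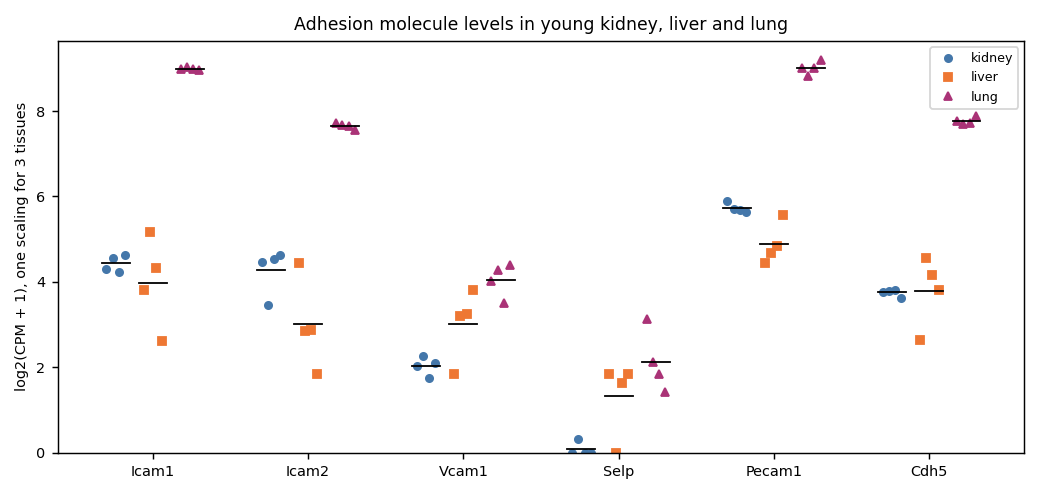
Levels of 6 adhesion molecules in young kidney, liver and lung, as log2(CPM + 1) on a scaling shared by the 3 tissues. Each point is 1 library and the line is the mean of 4. For Icam1, Icam2, Pecam1 and Cdh5 every lung library lies above every kidney and liver library, while Vcam1 and Selp in liver reach into the lung range.

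The next question was how the old, vehicle-injected mice differed from the young. Icam1, the ligand of the integrins LFA-1 and Mac-1, was called higher in kidney and skin, and its liver level was also higher. In kidney it stood at 21.0, 24.8, 19.9 and 26.8 CPM in the young libraries and at 37.7, 54.7 and 62.0 CPM in the vehicle libraries. Every vehicle library was above every young one, and Icam1 rose 2.22-fold (log2 1.15 ± 0.22 SE, adjusted p = 0.00272). In liver the young libraries held 9.68, 25.3, 13.8 and 3.84 CPM and the vehicle libraries 26.2, 55.0 and 51.4 CPM, from between 2 and 47 counts each. The groups did not overlap, although the highest young and the lowest vehicle library were nearly equal. The Icam1 estimate was 3.43-fold higher (log2 1.78 ± 0.40, adjusted p = 0.00539). Icam1 passed the liver filter only through the vehicle libraries, so the liver test is not read as support for a rise. In skin it went from 10.9, 12.1 and 15.0 CPM to 32.1, 27.4 and 57.1 CPM, a rise of 3.05-fold (log2 1.61 ± 0.34, adjusted p = 0.0239). The skin row of Icam1 reaches 2000 bases past the transcript's 3′ end and overlaps Icam4 there, which held at most 4 counts in any skin library. Lung went the other way without passing the test: 637.1, 655.0, 636.0 and 615.5 CPM in young mice against 484.3, 451.2 and 411.8 CPM in vehicle mice, with every vehicle library below every young one (log2 -0.50 ± 0.26, adjusted p = 0.215).

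Vcam1, the ligand of the integrin VLA-4, rose in kidney and lung. Its level was also higher in skin, where it passed the filter only through the vehicle libraries. In kidney the young libraries held 3.43, 4.13, 2.64 and 3.69 CPM and the vehicle libraries 8.25, 23.3 and 10.8 CPM (3.82-fold, log2 1.93 ± 0.36 SE, adjusted p = 0.00189). In lung it went from 19.1, 23.0, 13.0 and 25.0 CPM to 74.5, 79.8 and 129.4 CPM (4.73-fold, log2 2.24 ± 0.40, adjusted p = 0.00414). In kidney and lung the groups were well apart, and the call held in each alternative that gave a value. In skin the young libraries held 1, 1 and 2 counts and the vehicle libraries 23, 69 and 58 counts, so the fold is poorly bounded. The ratio of the summed counts, 150 in vehicle and 4 in young mice, was 22.9 with an exact 95% interval of 8.76 to 85.2. This interval covers counting error only. The skin fit gave log2 4.42 ± 0.72 (adjusted p = 0.0130), which is not read as support because of the filter. In liver Vcam1 was too low to test, with 1, 4, 4 and 5 counts in young and 0, 17 and 5 counts in vehicle libraries.

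Icam2 and Pecam1 changed in fewer tissues. Icam2 stood at 3.62, 2.88 and 5.91 CPM in young skin and at 17.6, 13.5 and 15.2 CPM in vehicle skin, a rise of 3.62-fold (log2 1.85 ± 0.46 SE, adjusted p = 0.0356). In kidney (log2 -0.05 ± 0.28, adjusted p = 0.929) and lung (log2 -0.33 ± 0.34, adjusted p = 0.550) its groups overlapped. The skin row of Icam2 also reaches 2000 bases past the transcript, where it overlaps Prr29 on the other strand. Pecam1 stood at 23.2, 35.7 and 33.7 CPM in young skin and at 64.6, 99.7 and 87.7 CPM in vehicle skin, a rise of 2.71-fold (log2 1.44 ± 0.25, adjusted p = 0.0146). In liver it stood at 15.5, 17.9, 20.0 and 34.5 CPM in young and at 56.7, 44.5 and 32.1 CPM in vehicle mice. The highest young library was above the lowest vehicle library, and Pecam1 passed the test narrowly (1.92-fold, log2 0.94 ± 0.32, adjusted p = 0.0436). It passed the liver filter only through the vehicle libraries, so this test is not read as support for a rise. In kidney Pecam1 hardly moved (log2 -0.02 ± 0.21, interval of 2 SE -0.45 to 0.41), and in lung it stood at 648.4, 561.8, 650.1 and 720.5 CPM in young and at 440.7, 578.1 and 182.9 CPM in vehicle mice (log2 -0.69 ± 0.35, adjusted p = 0.208).

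Cdh5 was not called in any tissue. In lung it stood at 273.2, 258.7, 262.6 and 293.7 CPM in young mice and at 105.3, 231.6 and 59.1 CPM in vehicle mice, so that all vehicle libraries were lower but spread widely (log2 -1.04 ± 0.42 SE, adjusted p = 0.117). In skin the estimate was close to 0 (log2 0.03 ± 0.35, interval -0.67 to 0.73), next to higher levels of Icam1, Icam2, Vcam1 and Pecam1 in the same libraries. In kidney it was 13.9 CPM ± 0.725 (SD, n = 4) in young and 17.6 CPM ± 4.44 (SD, n = 3) in vehicle mice (log2 0.29 ± 0.27, adjusted p = 0.514). In liver Cdh5 had 2, 11, 8 and 5 counts in young and 0, 7 and 13 in vehicle libraries.

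The selectins and Madcam1 were scarce. Selp was tested only in lung, where young libraries held 9.81, 4.17, 3.26 and 2.08 CPM and vehicle libraries 6.71, 10.7 and 9.73 CPM, with overlapping groups (log2 0.90 ± 0.48 SE, adjusted p = 0.224). In kidney Selp had 0, 1, 0 and 0 counts in young and 5, 2 and 3 counts in vehicle libraries, a ratio of 18.8 with an exact 95% interval of 2.68 to 816.0 for counting error. In skin it had 0, 0 and 9 counts in young and 3, 24 and 93 counts in vehicle libraries, so that a single vehicle library held most of them. Sele had counts mainly in skin, with 0, 0 and 5 in young, 6, 7 and 20 in vehicle and 8, 4 and 11 in ABT-737 libraries. In CPM every vehicle library (2.49 to 5.52) was above every young one (at most 2.27), yet the counts were too few to test. Elsewhere Sele (NM_011345, chr1:164048234-164057677) had 1 count in kidney, 1 in lung and 0 in all 10 liver libraries, which allows up to 0.555 CPM over the liver libraries together. Madcam1 (NM_013591, chr10:79664574-79668536) reached at most 4 counts, in a lung library of an old mouse, and had none in the young libraries of kidney, liver or lung.

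By the main test of vehicle against young mice, 2 of 5 members were called in kidney, both higher, where 13.3% of all genes tested were called. Of these, Vcam1 reached the minimum of the filter in all vehicle and ABT-737 libraries and in 0 of 4 young libraries. In lung 1 of 6 was called higher (12.9%). In liver Icam1 and Pecam1 were called higher (22.6% of genes), but both passed the filter only through the 3 vehicle libraries. No count of members and no support for a rise is therefore read from liver. In skin Icam1, Icam2, Pecam1 and Vcam1 were called higher (11.2%), and of these Vcam1 passed the filter only through the vehicle libraries, which leaves 3 of 4 members for the count. DESeq2 called 2 members in kidney, 1 in lung, 1 in liver and 4 in skin. In skin, where each group had 3 libraries, no member was called without young replicate 1 or 2, and 2 were called without young replicate 3 or vehicle replicate 5 (adjusted p for Icam1 0.0538 to 0.0962 over these 4 fits), and Icam2 also lost its call without vehicle replicate 3 (adjusted p = 0.0718) or 4 (adjusted p = 0.0514). The liver call of Pecam1 was lost without young replicate 1, 2 or 3, vehicle replicate 3 or 4, or any ABT-737 library (adjusted p 0.0535 to 0.131), and Cdh5 in lung was called lower without vehicle replicate 4 (log2 -1.74, adjusted p = 0.0122).

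**Figure D2:**
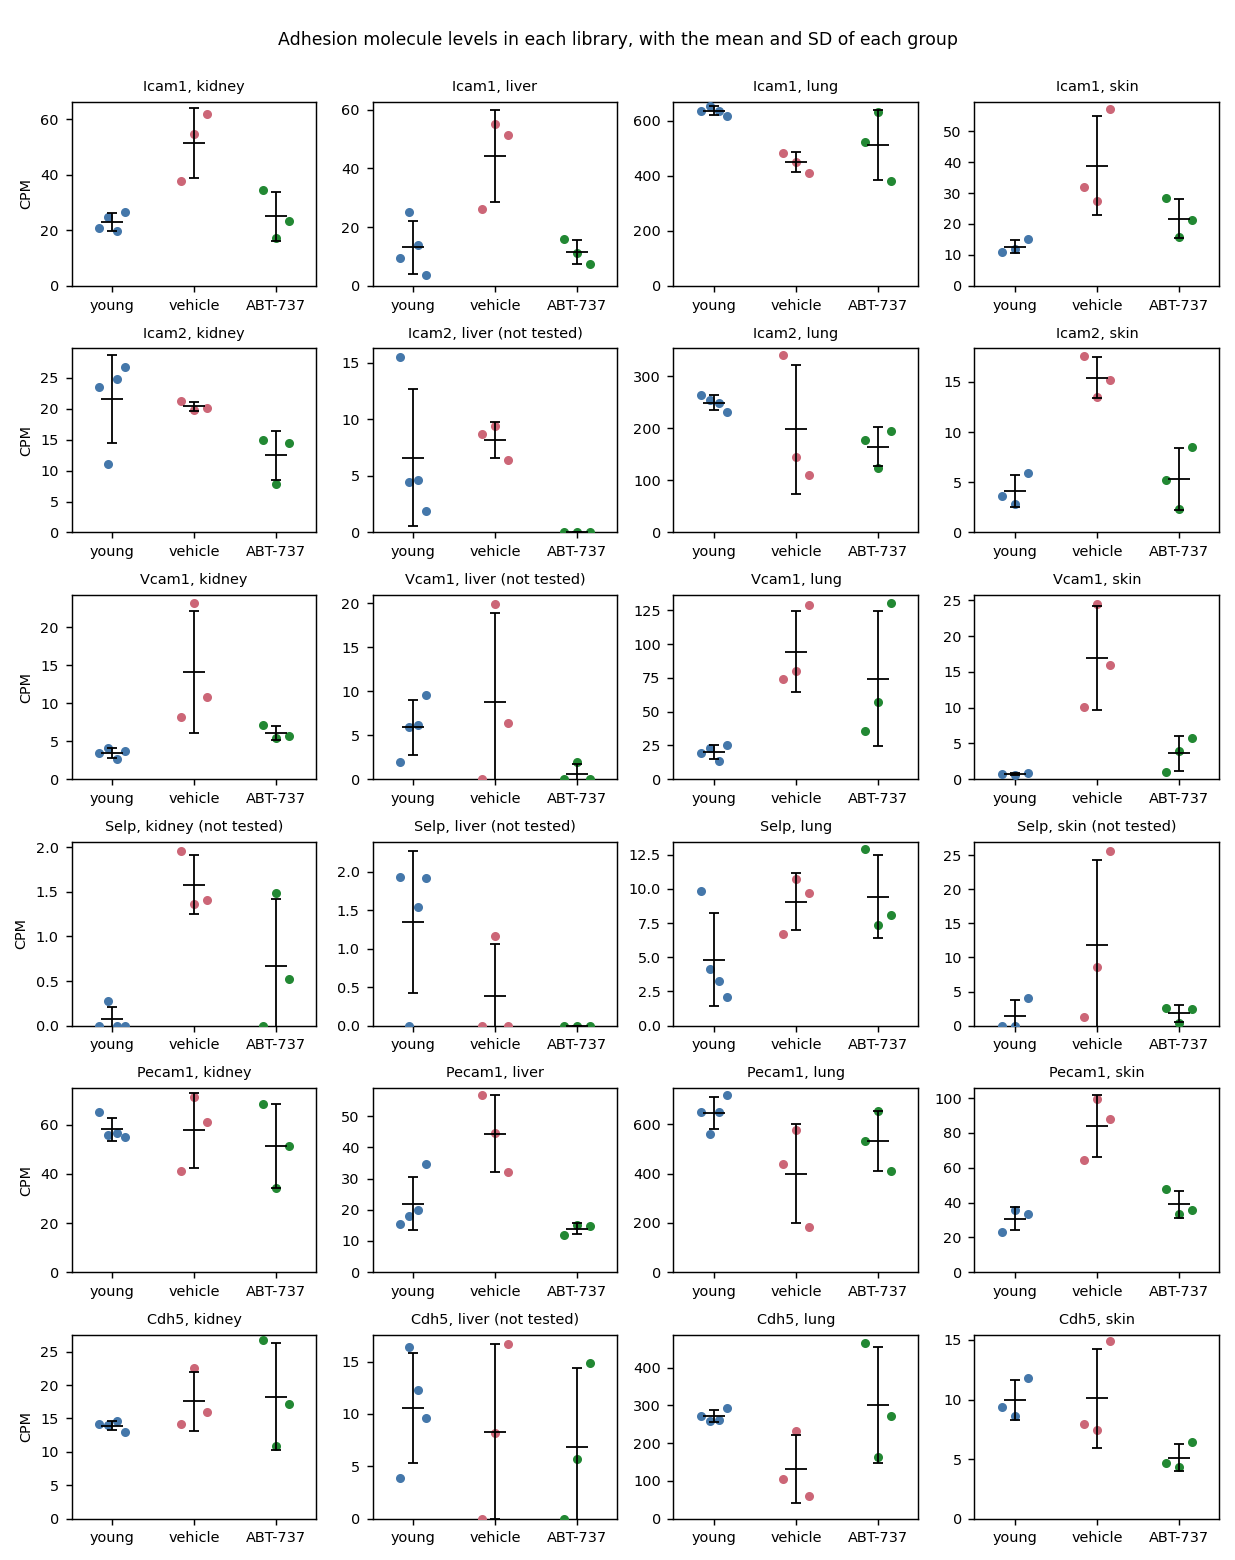
CPM of 6 adhesion molecules (rows) in kidney, liver, lung and skin (columns), each on its own linear axis from 0. Points are libraries, horizontal lines are group means and error bars are SD (n = 3, or 4 for young kidney, liver and lung). Panels marked as not tested had too few counts. Icam1 in vehicle mice lies above young mice in kidney, liver and skin and below them in lung.

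The main question of the study design was the effect of ABT-737 on old mice, measured against the vehicle libraries. These libraries also enter the comparison with young mice, so the estimates of both comparisons are not independent. In liver Icam1 stood at 26.2, 55.0 and 51.4 CPM with vehicle and at 15.9, 11.4 and 7.43 CPM with ABT-737, from 3 to 6 counts in each ABT-737 library. All ABT-737 libraries were below all vehicle libraries, and the Icam1 estimate was 4.26-fold lower (log2 -2.09 ± 0.51 SE, adjusted p = 0.0295). Icam1 passed the liver filter only through the vehicle libraries, so this adjusted p is not read as support for a fall. Pecam1 in liver stood at 56.7, 44.5 and 32.1 CPM with vehicle and at 11.9, 15.2 and 14.9 CPM with ABT-737, from 3 to 8 counts in each ABT-737 library. Its estimate was 2.91-fold lower (log2 -1.54 ± 0.40, adjusted p = 0.0439). Pecam1 too passed the liver filter only through the vehicle libraries, and its adjusted p is not read as support. Icam2 in liver, too low to test, had 2, 8 and 5 counts with vehicle and none in 3 ABT-737 libraries. With 3 counts over the ABT-737 group taken as the floor, the ratio was 3.18. This ratio leaves out the counting error of the vehicle libraries. Vcam1 in liver had 0, 17 and 5 counts with vehicle and 0, 1 and 0 with ABT-737 (ratio of summed counts 14.0, exact 95% interval 2.26 to 577.1), whereas Cdh5 had 0, 7 and 13 against 0, 3 and 6.

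The liver calls rested on few counts. Icam1 and Pecam1 were called lower where 3.85% of 5583 genes were called. They passed the filter only through the vehicle libraries: all 3 of these reached its minimum, and none of the ABT-737 and 1 (Icam1) or 2 (Pecam1) of 4 young libraries did. The filter thus took members that are high in vehicle. No count of liver members is read from it, and their adjusted p values are not read as support for a fall. The Icam1 call was lost without vehicle replicate 4 (adjusted p = 0.110), vehicle replicate 5 (0.0554), ABT-737 replicate 3 (0.0629), replicate 4 (0.153) or replicate 5 (0.118). The Pecam1 call was lost without vehicle replicate 4, without any ABT-737 library or without young replicate 1, 2 or 3 (adjusted p 0.0563 to 0.182), and DESeq2 called only Icam1 of these genes.

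In kidney Icam1, Vcam1 and Icam2 had lower estimates with ABT-737, and none was called. Icam1 stood at 37.7, 54.7 and 62.0 CPM with vehicle and at 34.4, 17.3 and 23.4 CPM with ABT-737 (log2 -1.03 ± 0.25 SE, adjusted p = 0.0519). Vcam1 stood at 8.25, 23.3 and 10.8 CPM with vehicle and at 7.19, 5.44 and 5.71 CPM with ABT-737 (log2 -1.12 ± 0.38, adjusted p = 0.166), and Icam2 at 21.2, 19.8 and 20.2 CPM against 14.9, 7.92 and 14.5 CPM (log2 -0.72 ± 0.33, adjusted p = 0.314). For these 3 genes every ABT-737 library lay below every vehicle library, an order that 8.47% of all kidney genes tested showed. Pecam1 (log2 -0.16 ± 0.24, adjusted p = 0.813) and Cdh5 (log2 0.09 ± 0.29, adjusted p = 0.925) had overlapping groups. Thus edgeR called 0 of 5 kidney members where 1.35% of 11123 genes were called. At an unadjusted p under 0.05 the count was 3 members, and DESeq2 called 1, Icam1 (adjusted p = 0.0176, with 0.00795 to 0.291 over all alternatives). Without vehicle replicate 3, both Icam1 (adjusted p = 0.0119) and Vcam1 (adjusted p = 0.0447) were called lower, and without ABT-737 replicate 3 Icam1 was (adjusted p = 0.0259).

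In skin all 5 members had lower estimates with ABT-737, and none was called. Vcam1 is among them only through its vehicle libraries, as above. Vcam1 stood at 10.1, 24.6 and 16.0 CPM with vehicle and at 1.04, 3.92 and 5.79 CPM with ABT-737 (log2 -2.25 ± 0.54 SE). Icam2 stood at 17.6, 13.5 and 15.2 CPM against 5.19, 2.35 and 8.53 CPM (log2 -1.49 ± 0.42), and Pecam1 at 64.6, 99.7 and 87.7 CPM against 47.7, 33.3 and 36.0 CPM (log2 -1.10 ± 0.24). For all 3 the adjusted p was 0.476. Cdh5 stood at 7.91, 7.47 and 14.9 CPM against 4.67, 4.31 and 6.40 CPM (log2 -0.98 ± 0.35, adjusted p = 0.539), and Icam1 at 32.1, 27.4 and 57.1 CPM against 28.3, 15.7 and 21.3 CPM with 1 overlap (log2 -0.83 ± 0.32, adjusted p = 0.576). For Icam2, Pecam1 and Cdh5 all ABT-737 libraries lay below all vehicle libraries, as for 5.81% of all skin genes tested. Vcam1 showed the same order but is left out of this count because of the filter. In skin edgeR called 0 of 14224 genes, 0% of them, with 1134 genes and 5 members at an unadjusted p under 0.05. DESeq2 called 60 genes, among them 1 member, Pecam1 (adjusted p = 0.0196, with values up to 0.999 over the other alternatives). Selp in skin had 3, 24 and 93 counts with vehicle and 10, 1 and 8 with ABT-737.

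In lung the members showed no common direction with ABT-737. Cdh5 stood at 105.3, 231.6 and 59.1 CPM in vehicle and at 466.3, 164.4 and 272.0 CPM in ABT-737 libraries (log2 1.19 ± 0.45 SE, adjusted p = 0.217). Leaving out vehicle replicate 4 raised this log2 estimate to 1.88, and leaving out ABT-737 replicate 3 lowered it to 0.73. Icam1 stood at 484.3, 451.2 and 411.8 CPM against 523.6, 631.2 and 379.8 CPM (log2 0.19 ± 0.28, interval -0.37 to 0.74), and Vcam1 at 74.5, 79.8 and 129.4 CPM against 35.4, 56.9 and 130.6 CPM (log2 -0.33 ± 0.41, interval -1.16 to 0.49). Selp (log2 0.05 ± 0.49), Pecam1 (log2 0.41 ± 0.37) and Icam2 (log2 -0.26 ± 0.37) also had overlapping groups. Between libraries of the same replicate number, Pecam1 was higher with ABT-737 each time (440.7 to 533.3, 578.1 to 653.3 and 182.9 to 409.4 CPM). By the same numbers Icam1, Icam2, Vcam1, Selp and Cdh5 each moved in both directions. The spread within a lung group was wide, and a change of the size seen for Icam1 in kidney lies outside the lung interval, while for Vcam1 it lies inside. In lung edgeR called 0 of 6 members and 0 of 11949 genes (0%), with 1919 genes and 1 member at an unadjusted p under 0.05, and DESeq2 called 301 genes and no member. With libraries of the same replicate number taken as pairs (a replicate block), 72 lung genes and no member were called.

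**Figure D3:**
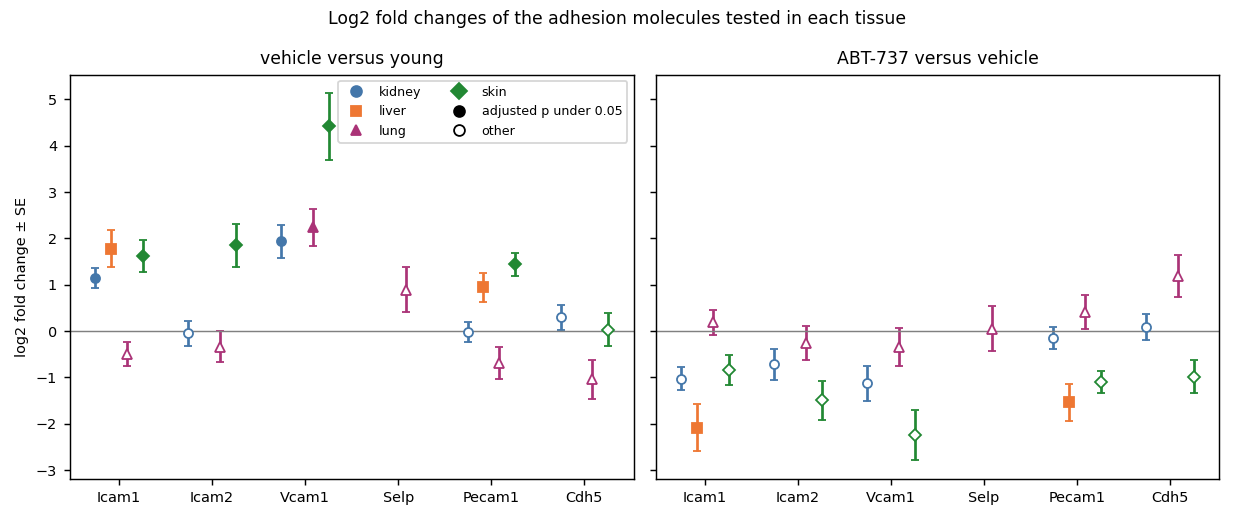
Log2 fold change ± SE of each member tested, for vehicle against young mice (left) and for ABT-737 against vehicle (right), by tissue. Filled symbols passed an adjusted p under 0.05. Skin Vcam1 at 4.42 on the left rests on 4 counts in the young libraries, and the only filled symbols on the right are Icam1 and Pecam1 in liver. Both of these passed the filter only through the vehicle libraries.

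Whether the tissues differed was tested directly for kidney, liver and lung, which share a table. Their libraries carry the same replicate numbers within each group, so they may come from the same mice. The joint fit treated the tissues as independent, and sharing of mice between tissues was not tested. For Icam1 the difference between vehicle and young mice was larger in kidney than in lung by log2 1.64 ± 0.37 (SE, adjusted p = 0.00719) and larger in liver than in lung by log2 2.31 ± 0.44 (adjusted p = 0.00107). Both calls held when any 1 of the 30 libraries was left out. For Pecam1 liver exceeded lung by log2 1.66 ± 0.46 (adjusted p = 0.0158), a call that was lost without liver vehicle replicate 4 (adjusted p = 0.0519). Icam1 and Pecam1 were taken in liver only through its vehicle libraries. No liver difference, here or with ABT-737, is therefore read as support. Vcam1 did not differ detectably between kidney and lung (log2 -0.32 ± 0.64, interval -1.60 to 0.95). Cdh5 differed between kidney and lung by log2 1.34 ± 0.54, which was not called (adjusted p = 0.120) except without lung vehicle replicate 4 (log2 2.02, adjusted p = 0.00772). Of the members that passed the filter in both tissues, the age difference was called for 1 of 5 between kidney and lung (8.04% of 13107 genes). Icam1 and Pecam1, which passed in liver through its vehicle libraries, were both called between liver and lung (11.4%) and neither between kidney and liver (0.786%). For the last, Pecam1 had an unadjusted p under 0.05 by edgeR, and DESeq2 called none.

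For ABT-737 against vehicle, Icam1 differed between liver and lung by log2 -2.31 ± 0.53 (SE, adjusted p = 0.0425), where the median of all genes was -0.33. This call was fragile, since it held in 11 of the 30 fits that left out 1 library (adjusted p 0.0149 to 0.183, highest without liver vehicle replicate 4). It was lost without kidney young replicate 1, 2, 3 or 4, kidney vehicle replicate 4 or 5, kidney ABT-737 replicate 5, liver young replicate 3, liver vehicle replicate 4 or 5, any liver ABT-737 library, lung young replicate 1, 2 or 3, lung vehicle replicate 5, or lung ABT-737 replicate 3 or 4. In a joint fit of the vehicle and ABT-737 libraries the Icam1 difference was not called, either with the replicate number as a block in lung, where the numbers were taken to pair the samples (log2 -2.28, adjusted p = 0.109), or without a block (log2 -2.29, adjusted p = 0.198). Pecam1 differed in the same direction (log2 -1.99 ± 0.55, adjusted p = 0.101), and was called without lung vehicle replicate 4 (log2 -2.34, adjusted p = 0.0424). Between kidney and lung Icam1 differed by log2 -1.21 ± 0.40 (adjusted p = 0.373) and between kidney and liver by 1.09 ± 0.56 (adjusted p = 0.709). Of Icam1 and Pecam1, the members that passed in liver through its vehicle libraries, Icam1 was called between liver and lung (0.29% of genes) and neither between kidney and liver (0.0839%), with 0 of 5 members called between kidney and lung (0%). Beside these zeros, edgeR gave 1 member each at an unadjusted p under 0.05, Pecam1 and then Icam1, and DESeq2 called none in either. Liver differences of Icam2, Vcam1, Selp and Cdh5 are not given as folds because liver libraries at 0 counts enter them.

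The leukocyte side was described with 18 genes for counter-receptors and selectin ligands. Against young mice, vehicle kidney had 7 of 13 tested genes higher and 1 lower (13.3% of all genes called). Itgb2, the shared beta chain of the Icam1-binding integrins, rose by log2 2.82 ± 0.23 (SE, adjusted p = 1.20e-06), and Selplg, the P-selectin ligand PSGL-1, by 2.72 ± 0.26. The alpha chains Itgal and Itgam both rose by log2 3.00, and Gcnt1, an enzyme that builds selectin ligands, was the gene that fell (log2 -0.62). Liver had 4 of 6 higher (22.6%), led by Itgb2 (log2 3.17) and Itgal (2.96), followed by Selplg (2.83) and Glg1 (1.34). Lung had 6 of 15 higher (12.9%), among them Itgam (log2 3.13), Selplg (2.5) and Itgb7 (2.16). It had 1 lower, the integrin chain Itgb1 (log2 -1.86). Skin had 5 of 13 higher (11.2%), led by Itgb2 (log2 3.38), Itgam (3.20), Selplg (2.89) and Itgb7 (2.32). With ABT-737, 3 of 13 fell in kidney (1.35% of all genes called). They were Itga4, the alpha chain of the Vcam1-binding integrin (log2 -2.29 ± 0.52), Itgb2 (-1.66 ± 0.23) and Selplg (-1.53 ± 0.27). In liver 2 of 6 fell (3.85%), Selplg (log2 -2.33 ± 0.44) and Itgb2 (-2.05 ± 0.41). None of 15 in lung or 13 in skin was called by edgeR (0% of all genes in each), with 5 and 6 at an unadjusted p under 0.05. The median log2 change with ABT-737 was -1.28 in liver, -0.94 in kidney, -0.50 in skin and -0.45 in lung, beside medians of all genes between -0.03 and 0.04.

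Junction partners were read from a further list. With ABT-737 none of the tested genes was called, with 8 tested in liver and 15 in each other tissue. By edgeR 2 lung genes and 1 in each other tissue had an unadjusted p under 0.05. Against young mice skin had 1 of 15 called (11.2% of all genes), kidney 2 of 15 (13.3%), lung 1 of 15 (12.9%) and liver 2 of 8 (22.6%), so these shares are near or below the background and nothing is read from them. The called genes were the junction adhesion molecules Jam2 (log2 0.92 ± 0.27 SE) and Jam3 (0.74 ± 0.15) in kidney, and plakoglobin (Jup, log2 1.18) and beta-catenin (Ctnnb1, log2 -1.11) in liver. In lung the endothelial Esam was called (log2 -1.20 ± 0.37), and in skin claudin 5 (Cldn5, log2 1.83 ± 0.45).

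Inducers and regulators of adhesion molecules were covered by 20 genes of cytokines, their receptors and NF-kappaB. In vehicle kidney 10 of 16 were higher than in young mice and none lower (13.3% of all genes called). Among them were the cytokine Il1b (log2 2.54 ± 0.47 SE), the interferon-response factor Irf1 (2.22 ± 0.23) and the NF-kappaB inhibitor Nfkbie (1.92). In liver 5 of 11 were higher (22.6%), among them the NF-kappaB subunit Nfkb2 (log2 2.40), Irf1 (1.91) and the NF-kappaB inhibitor Nfkbia (1.01). In lung 9 of 18 were higher (12.9%). The cytokines Ifng (log2 5.02 ± 0.94), Tnf (3.63 ± 0.73) and Il1b (2.97 ± 0.52) were ahead of Nfkbie (2.91). In the same lung libraries Vcam1 was called higher than in the young (log2 2.24), and Icam1 was lower without being called (log2 -0.50). A link between these genes was not tested. In skin 4 of 17 were higher (11.2%), among them the TNF receptor Tnfrsf1b (log2 2.71), Nfkbie (1.51) and Irf1 (0.97). With ABT-737, 2 of 16 fell in kidney (1.35% of all genes called) and 2 of 11 in liver (3.85%). Irf1 was among them in both (log2 -1.60 ± 0.25 in kidney and -1.52 ± 0.39 in liver). Here edgeR called 0 of 18 in lung and 0 of 17 in skin (0% of all genes in each). At an unadjusted p under 0.05 there were 10 and 7.

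**Figure D4:**
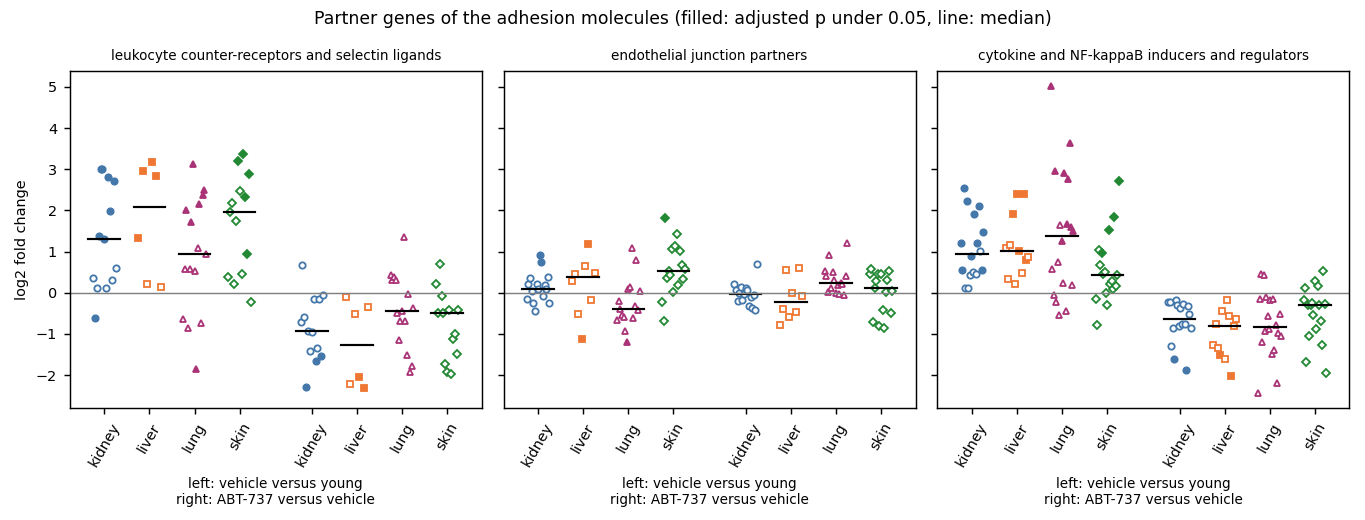
Log2 fold changes of every tested gene of the counter-receptor, junction and inducer lists, by tissue. In each panel the left 4 columns compare vehicle with young mice and the right 4 compare ABT-737 with vehicle, filled symbols passed an adjusted p under 0.05 and black lines are medians. Filled symbols for ABT-737 occur only in kidney and liver.

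Cell type markers also differed between these groups, and their part in these results was not tested. The summed level of the 22 endothelial markers, whose most abundant gene was Plvap in kidney and Ramp2 in lung and skin, was 758 to 821 CPM in young kidney, 924 to 1378 CPM with vehicle and 882 to 926 CPM with ABT-737. In liver, where Eng was the most abundant, the sums were 381 to 422, 527 to 616 and 277 to 366 CPM in the same order. In skin they were 292 to 409, 496 to 793 and 384 to 458 CPM. In lung the young libraries held 6324 to 6617 CPM, whereas the vehicle libraries held 3733, 5649 and 1862 CPM and the ABT-737 libraries 5158, 4779 and 3212 CPM. Against young mice, 6 of 19 endothelial markers rose in skin (11.2% of all genes called), 5 of 20 in kidney (13.3%) and 2 of 7 in liver (22.6%), and none fell. In lung 5 of 21 fell and none rose (12.9%). The liver count is near the share of all genes, and nothing is read from it. The lung genes were Aplnr (log2 -2.02 ± 0.50 SE), Calcrl (-1.48), Sox17 (-1.45), Ecscr (-1.29) and Robo4 (-1.26). With ABT-737, edgeR called no endothelial marker in any tissue, with 6 in skin, 3 in kidney, 2 in liver and 2 in lung at an unadjusted p under 0.05. The endothelial sum, like Icam1, was thus lower in every vehicle lung library than in any young one, and higher in the other 3 tissues. Not every member followed this sum: Vcam1 was called higher in vehicle lung (log2 2.24), and Cdh5 in skin stayed near 0 (log2 0.03).

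Leukocyte markers were higher in vehicle than in young mice in every tissue. The 19 pan-leukocyte markers, led by Cd52 in kidney and Laptm5 elsewhere, summed to 158 to 183 CPM in young kidney, 622 to 981 CPM with vehicle and 266 to 408 CPM with ABT-737. In liver the sums were 157 to 192, 862 to 1171 and 154 to 250 CPM, in lung 1311 to 1599, 3995 to 11290 and 1552 to 3984 CPM, and in skin 143 to 296, 640 to 1562 and 210 to 492 CPM. Of those tested against young mice, 11 of 13 rose in skin (11.2% of all genes called) and 14 of 14 in kidney (13.3%). The counts were 14 of 16 for lung (12.9%) and 7 of 8 for liver (22.6%). With ABT-737, 8 of 14 fell in kidney (1.35% of all genes called) and 7 of 8 in liver (3.85%). None of 16 was called in lung or of 13 in skin (10 and 10 at an unadjusted p under 0.05), where 0% of all genes were. Of macrophage markers, whose most abundant genes were C1qb in kidney and lung, C1qa in liver and Lyz2 in skin, 8 of 10 in skin, 8 of 8 in kidney, 6 of 11 in lung and 10 of 10 in liver rose against young mice. With ABT-737, 4 of 8 fell in kidney and 9 of 10 in liver, and none was called in lung or skin, with 2 and 8 at an unadjusted p under 0.05. The shares of all genes given beside the pan-leukocyte counts apply to the macrophage counts too. The Kupffer cell marker Clec4f had no count in any kidney or skin library, and the B-cell gene Cd79a none in liver. Some markers passed the filter through the vehicle libraries. In liver, where its minimum was 18.25 CPM, Coro1a averaged 102.5 CPM with vehicle, 11.69 with ABT-737 and 7.905 in young libraries. In kidney (minimum 4.602 CPM) Cd3d averaged 7.243, 0.8536 and 0.9563 CPM in the same order. Genes of the lists were not sorted by this, so no called count of a list is read as support for a rise or fall.

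**Figure D5:**
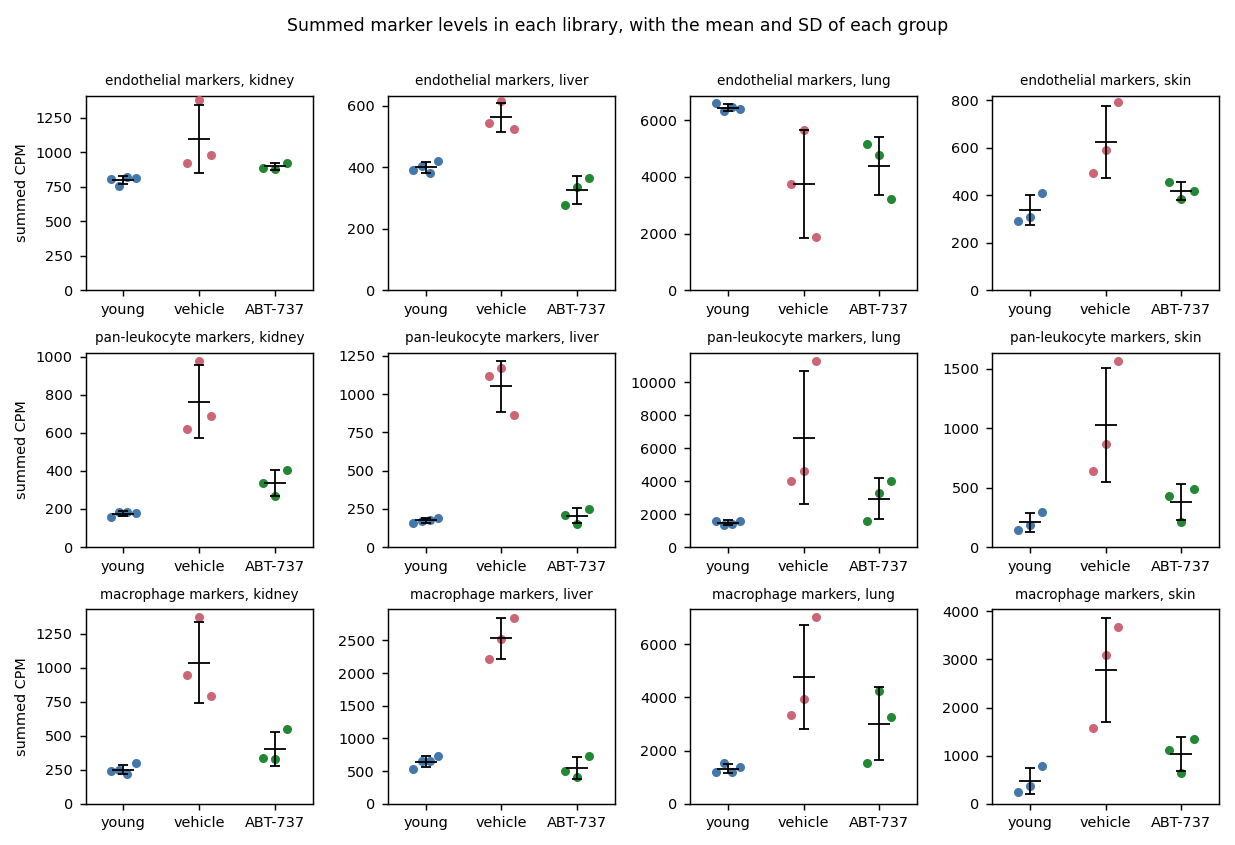
Summed CPM of endothelial, pan-leukocyte and macrophage markers in each library, by tissue, on linear axes from 0. Lines are group means and error bars SD (n = 3, or 4 for young kidney, liver and lung). Mean leukocyte and macrophage sums are highest with vehicle, and the lung vehicle library with 1862 CPM of endothelial markers is the one with 11290 CPM of pan-leukocyte markers.

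A pair of lung libraries stood apart. Lung vehicle replicate 5 had the highest pan-leukocyte sum (11290 CPM) and the lowest endothelial sum (1862 CPM), Pecam1 (182.9 CPM) and Cdh5 (59.1 CPM) of all lung libraries, while its Icam1 (411.8 CPM) and Vcam1 (129.4 CPM) were near those of ABT-737 replicate 5. Lung ABT-737 replicate 3 held 69500 CPM of red cell markers, against 25110 CPM or less in every other lung library. Without both, Vcam1 was still called higher in vehicle than in young lung (log2 1.95, adjusted p = 0.00539), no member was called for ABT-737, and the estimates for ABT-737 became log2 0.37 for Cdh5, 0.06 for Pecam1, -0.60 for Icam2, 0.30 for Vcam1 and -0.19 for Selp, the last 2 of them changed in sign. The Icam1 age differences of kidney and liver against lung were still called without them (log2 1.59 and 2.26), and the ABT-737 difference of liver against lung was not (log2 -2.25, adjusted p = 0.0621).

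The pattern of each member over the 9 combinations of kidney, liver and lung with young, vehicle and ABT-737 was set beside that of every other gene tested. The distance was the root mean square difference of the group means of log2 CPM, each gene centred on its own mean, and has no test. Icam1 was nearest to Ltbp2 (0.264), Arl11 (0.273) and Tbc1d30 (0.330), and Pecam1 to Tgfb3 (0.206), Fam212b (0.236) and Plac9b (0.2404). For Icam2, Vcam1, Cdh5 and Selp the liver means rest on few or no counts, and their nearest genes are not given.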

How the data were processed

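RNA was measured in 39 bulk libraries from kidney, liver, lung and skin. The authors reverse transcribed, pooled and amplified the RNA by a derivative of MARS-seq, sequenced the 3′ ends on a NextSeq and deposited raw counts per gene in 2 tables. The submitters' processing notes name bcl2fastq, HISAT 0.1.5, HOMER and the build mm10. Use of strand and collapsing of reads by molecule barcode are not given in the sources used here, so intervals and floors cover counting error only, and antisense genes overlapping Icam1, Vcam1, Selp and Cdh5 cannot be told apart from them. For skin, 43180 of 52316 rows matched to a transcript, 6 members among them, reach 2000 bases past the annotated transcript. No member shared identical counts with another gene, apart from Sele in kidney, liver and lung and Madcam1 in skin, which had too few counts to check.

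Each tissue was fitted apart with edgeR 4.0.16 (R 4.3.3, limma 3.58.1): its expression filter, TMM scaling, 3 groups and the quasi-likelihood test, with Benjamini-Hochberg adjustment over all genes tested and calls at an adjusted p under 0.05. Kidney, liver and lung were also fitted together as 9 groups for tests between tissues, and no skin level was set beside them. Libraries of a group varied least in kidney (biological coefficient of variation 16.5%), then in liver (23.5%), lung (31.7%) and skin (34.9%), with 25.3% in the joint fit. CPM were computed from the deposited counts and the TMM-scaled library size. An exact Clopper-Pearson interval on summed counts was used for members with few counts. Intervals beside log2 values are 2 SE. DESeq2 1.42.0 and the other alternatives are in the closing section.

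Members, lists and tests were chosen with earlier results of these data known. The tests of age differences between tissues, the joint fits of the vehicle and ABT-737 libraries, and the fit without both lung libraries that stood apart, were added after values had been seen. The text names all 8 members, up to 4 called genes in each direction of the counter-receptor, junction and inducer lists, the most abundant and absent markers, and the 3 genes nearest to each member tested in all 3 tissues. Some genes of these lists are counted but not reported here by name. Sele in skin and other low members are named with counts only. Nothing in the labels says that replicates are separate animals beyond calling them biological replicates. Of 45 library pairs within groups, none agreed within sampling noise. Vehicle and ABT-737 replicates share the numbers 3 to 5: same-numbered libraries deviated together in lung (correlations 0.177 to 0.427), and not in kidney (-0.210 to 0.0196), liver (-0.0442 to 0.160) or skin (-0.577 to 0.276), so that the numbers were taken to pair the samples in lung only. Differently numbered lung libraries had correlations of -0.572 to 0.303, which overlap those values. Pairing in lung is therefore an assumption that the labels do not give.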

Additional observations from a re-analysis of the deposited data

Results flagged for a closer look

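Young kidney replicate 1 stood outside the other 3 libraries of its group in 3 measures. Its Pecam1 level was 65.19 CPM (others 54.93 to 56.5), its red cell marker sum was 8417 CPM (others 1550 to 2052) and its pan-leukocyte marker sum was 157.8 CPM (others 178.6 to 182.5). These 3 were found among 25 groups of 4 libraries examined, where chance flags about 1 in 20. Leaving this library out kept both kidney calls of Icam1 and Vcam1 against young mice.

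In 4 tests the main joint fit called a difference between tissues. The change of Icam1 with ABT-737 was lower in liver than in lung by log2 -2.308. This call held in only 11 of 30 fits that left out 1 library. It was lost in the joint fit of vehicle and ABT-737 libraries, with the replicate block in lung (adjusted p = 0.109) or without a block (0.198). The difference between vehicle and young mice was larger in kidney than in lung by log2 1.639 for Icam1, larger in liver than in lung by log2 2.305 for Icam1, and larger in liver than in lung by log2 1.663 for Pecam1. Both genes were taken in liver only through its vehicle libraries, so the liver differences are not read as support. The Icam1 libraries also lay in opposite orders in lung and skin. In lung all vehicle libraries were below all young, but Icam1 was not called (log2 -0.502, adjusted p = 0.215). In skin all vehicle libraries were above all young (log2 1.61). This difference between lung and skin was not tested because the tissues are in separate tables.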

How the results depend on the processing

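Over the members tested, 1799 alternative values were computed: 1681 kept direction and call, 80 lost the call, 16 gained it and 22 changed sign, none of them for a called result. Levels scaled with DESeq2 size factors stayed within 1 SD in 96 of 96 cases. A minimum of 10 counts in every library left no member in liver and in the joint fit. Unless a value shows it, the cause was not tested.

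Members called for ABT-737 against vehicle numbered 0 in kidney (1 with DESeq2, 1 without the filter, 0 to 2 without 1 library), 2 in liver (1 with DESeq2, 4 without the filter, 1 with only the 2 groups, 0 with the replicate block, 0 to 2 without 1 library) and 0 in skin (1 with DESeq2). For vehicle against young they numbered 2 in kidney (1 with at least 10 counts, 3 without the filter), 2 in liver (1 with DESeq2, DESeq2 size factors, no filter or only the 2 groups, 1 to 2 without 1 library), 1 in lung (1 to 2) and 4 in skin (2 with at least 10 counts, 5 without the filter, 0 to 4 without 1 library). For young kidney against liver they numbered 2 of the 6 in the joint fit, counting members that did not pass in liver (1 with DESeq2 size factors, 0 to 3 without 1 library). For the ABT-737 difference of liver against lung they numbered 1 (0 without the filter, 0 without both lung libraries that stood apart, 0 with only the vehicle and ABT-737 libraries, whether with the replicate block in lung, in each tissue or with none, 0 to 2 without 1 library), and for age differences 1 to 2 for kidney against lung and 1 to 2 for liver against lung.

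Estimates that changed sign without 1 library ranged, for ABT-737, over -0.411 to 0.0735 (Pecam1, kidney), -0.29 to 0.36 (Cdh5, kidney), -1.51e-06 to 0.35 (Icam1, lung), -0.56 to 0.36 (Icam2, lung), -1.07 to 0.00395 (Vcam1, lung) and -0.23 to 0.18 (Selp, lung). For vehicle against young they ranged over -0.305 to 0.0633 (Icam2, kidney), -0.19 to 0.17 (Pecam1, kidney) and -0.38 to 0.19 (Cdh5, skin), and for young kidney against liver over -0.14 to 0.70 (Icam1) and -0.496 to 0.0700 (Cdh5). The age difference of Icam2 between kidney and lung ranged over -0.0161 to 0.897, and was -0.0136 without both lung libraries, as were Vcam1 (0.30) and Selp (-0.19) reversed there for ABT-737.

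All genes called moved by over 1.5 times as follows. For ABT-737 in kidney 150 became 229 with DESeq2, 368 without the filter, 69 with only the 2 groups and 52 with the replicate block (57 to 471 without 1 library). In liver 215 became 512 without the filter, 105 with at least 10 counts, 98 with only the 2 groups and 29 with the replicate block (44 to 529). In lung 0 became 301 with DESeq2, 359 without the filter and 72 with the replicate block (0 to 676), and in skin 60 with DESeq2 and 32 without the filter. For vehicle against young, liver moved from 1261 to 1942 without the filter and 496 with at least 10 counts, lung from 1539 to 1004 with at least 10 counts and 648 without both libraries (502 to 2426), skin from 1592 to 2665 with DESeq2 (39 to 2459) and kidney from 1474 to between 842 and 1885 without 1 library. In the joint fit, at least 10 counts brought 8425, 8155 and 5406 to 1316, 1320 and 1051 for young tissues; the ABT-737 differences of 11, 0 and 38 genes ranged over 0 to 29, 0 to 48 and 1 to 113, and the age differences of 103, 1054 and 1499 over 21 to 166, 275 to 1933 and 457 to 2020.

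The replicate block was run for ABT-737 only. Within a tissue it ended the liver calls of Icam1 (adjusted p = 0.112) and Pecam1 (0.166), where the numbers were not taken to pair the samples, and changed no other call of a member. In the joint fit, a choice made after seeing the data, the liver and lung difference of Icam1 had an adjusted p of 0.109 with the block in lung, 0.291 with it in each tissue and 0.198 with none. Liver had the lowest depth, and 6 of 8 members did not pass its filter, of which Sele, Selp and Madcam1 did not pass in kidney either.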

Other observations

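Marker lists of other cells in these tissues moved as follows. Platelet and megakaryocyte markers include cells that store P-selectin. Against young mice, 5 of 6 tested rose in kidney (13.3% of all genes called), 5 of 10 in lung (12.9%) and 5 of 5 in skin (11.2%). None was tested in liver. With ABT-737 edgeR called none, with 0, 0 and 3 at an unadjusted p under 0.05 in kidney, lung and skin, and the median log2 change was -0.37 in kidney, 0.63 in lung and -1.08 in skin. Lung vehicle replicate 5 held 166.8 CPM of these markers against 519.1 and 518.9 CPM in the other vehicle libraries. Red cell markers were led by Hbb-b1 (Hbb-bs in skin). Against young mice, 5 of 6 rose in skin, 7 of 8 in kidney and 5 of 8 in lung, beside the same shares of all genes. In liver 6 of 7 rose (22.6%). For red cell markers ABT-737 brought no call (5 in skin, 1 in kidney, 0 in lung and 5 in liver at an unadjusted p under 0.05). In kidney, liver and lung some globin genes nearly repeated each other. In vehicle kidney Hbb-b1 and Hbb-bs averaged 4025 and 4011 CPM, and Hbb-b2 and Hbb-bt 1571 and 1566 CPM. Red cell counts and sums in these tissues, including those given above, thus hold near-identical values more than once.

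Of lymphatic endothelial markers, 1 of 5 rose in lung (12.9% of all genes called) and 2 of 6 in skin (11.2%) against young mice. None of 1 in kidney (13.3%) or of 1 in liver (22.6%) was called. Nothing is read from counts near these shares, here or for the pericyte and smooth muscle markers below. In skin their sum went from 10.9, 19.6 and 41.8 CPM in young to 90.1, 85.1 and 104 CPM in vehicle and 63.6, 28.2 and 59.1 CPM in ABT-737 libraries. Of pericyte and smooth muscle markers, 4 of 9 fell and 1 rose in lung, 1 of 10 rose in kidney, 1 of 1 rose in liver and none of 10 was called in skin. With ABT-737 edgeR called no marker of these 2 lists (unadjusted p under 0.05 for 0, 1, 1 and 1 lymphatic and 2, 1, 2 and 0 mural markers in kidney, liver, lung and skin).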
